A study of Mus musculus with 18 samples.

Results

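The comparison described here is TCDD added to EGF in C3H10T1/2 cells that received no adipogenic mix. It rests on 4 of the series' 18 arrays, chosen by their labels: EGF 1 and 2, and EGF+TCDD 1 and 2. C3H10T1/2 is an established mouse fibroblast line that can be turned towards fat cells. EGF cultures had been given 10 nM EGF for 24 h, and EGF+TCDD cultures had the same EGF and also 10 nM TCDD for 72 h. All of them were collected 72 h after serum was last given and 24 h after confluence, and each array carried mRNA pooled from 6 cultures. Other arrays used beside them were UT 1 to 3 (neither agent), TCDD 1 and 2 (TCDD alone, 10 nM for 72 h), and the 9 arrays of cultures that also had the adipogenic mix IDMB (insulin, dexamethasone, IBMX and BRL49653) for 24 h (IDMB, IDMB + EGF, IDMB + TCDD and IDMB + EGF + TCDD).

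TCDD is a long-lived dioxin that binds the aryl hydrocarbon receptor, AhR. The bound receptor leaves its HSP90 chaperone complex in the cytosol, enters the nucleus, pairs with ARNT and binds DNA elements with the core GCGTG, which switches on genes of xenobiotic metabolism such as Cyp1a1, Cyp1b1, Aldh3a1 and Nqo1. EGF acts at the cell surface through its receptor and the Ras and ERK cascade, drives fibroblasts into division and opposes fat cell formation. The comparison asks which transcripts TCDD moved in cells already under EGF.

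Of the 17 named genes that passed the test described below, 11 had an entry in the RefSeq promoter table (mouse build GRCm38.p6), which covers the 250 bases before and the first 50 bases after each start. The 4 with the AhR genes are shown because the AhR response led the comparison, together with Chil1, the largest rise of a gene outside the AhR list, and Rflnb, a gene that fell. They lie at chr9:57697363-57697662 (Cyp1a1, plus strand), chr3:65528197-65528496 (Tiparp, plus), chr17:79715012-79715311 (Cyp1b1, minus), chr8:107403156-107403455 (Nqo1, minus), chr1:134181906-134182205 (Chil1, plus) and chr11:76027733-76028032 (Rflnb, minus). Each runs 5′ to 3′ in the direction of its gene, and capitals mark the AhR element core, GCGTG or its reverse complement CACGC.
Cyp1a1: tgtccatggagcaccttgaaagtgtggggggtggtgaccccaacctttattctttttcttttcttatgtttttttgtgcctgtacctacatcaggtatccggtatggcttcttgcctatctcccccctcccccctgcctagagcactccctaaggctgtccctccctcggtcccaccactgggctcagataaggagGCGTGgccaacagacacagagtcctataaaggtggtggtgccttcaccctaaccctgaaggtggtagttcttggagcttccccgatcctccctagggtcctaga
Tiparp: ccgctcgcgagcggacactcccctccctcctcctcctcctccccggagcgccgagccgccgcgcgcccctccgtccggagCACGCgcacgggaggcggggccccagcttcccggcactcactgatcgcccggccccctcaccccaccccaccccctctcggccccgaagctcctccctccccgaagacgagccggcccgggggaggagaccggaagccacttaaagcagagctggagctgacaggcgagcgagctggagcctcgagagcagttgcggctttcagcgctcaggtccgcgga
Cyp1b1: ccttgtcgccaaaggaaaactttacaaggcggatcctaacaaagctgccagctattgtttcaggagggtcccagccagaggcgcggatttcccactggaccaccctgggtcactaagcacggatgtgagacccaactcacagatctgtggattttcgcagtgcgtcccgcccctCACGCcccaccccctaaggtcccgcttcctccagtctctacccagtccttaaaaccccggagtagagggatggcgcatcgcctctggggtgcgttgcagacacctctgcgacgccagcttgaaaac
Nqo1: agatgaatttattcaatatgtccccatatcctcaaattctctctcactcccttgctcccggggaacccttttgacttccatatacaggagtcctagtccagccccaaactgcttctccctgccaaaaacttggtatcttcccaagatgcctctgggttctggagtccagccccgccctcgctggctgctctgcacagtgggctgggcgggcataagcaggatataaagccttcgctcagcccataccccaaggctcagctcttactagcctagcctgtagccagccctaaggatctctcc
Chil1: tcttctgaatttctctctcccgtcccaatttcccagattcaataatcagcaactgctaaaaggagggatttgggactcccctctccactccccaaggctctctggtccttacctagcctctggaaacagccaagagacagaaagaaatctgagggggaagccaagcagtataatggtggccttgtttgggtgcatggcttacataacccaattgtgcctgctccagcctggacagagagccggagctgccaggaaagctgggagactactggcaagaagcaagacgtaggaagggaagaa
Rflnb: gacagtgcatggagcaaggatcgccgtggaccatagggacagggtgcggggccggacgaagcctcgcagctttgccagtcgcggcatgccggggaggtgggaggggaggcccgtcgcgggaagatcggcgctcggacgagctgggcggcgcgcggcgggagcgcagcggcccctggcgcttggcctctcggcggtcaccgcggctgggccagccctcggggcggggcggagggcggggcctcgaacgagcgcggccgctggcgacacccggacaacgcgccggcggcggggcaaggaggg
The core began 54 bases before the Cyp1a1 start, 170 bases before that of Tiparp and 76 bases before that of Cyp1b1, and these letters were not in the Nqo1, Chil1 and Rflnb windows. Among the called genes it was found, on either strand, for 5 of 11 (Cyp1a1, Cyp1b1, Pus1, Slc38a2 and Tiparp), and 32.4% of all 32851 windows in the table hold it. The longer form TNGCGTG, which contains the core, and the AP-1 motif TGANTCA were in 0 of the 12 windows of the called genes (Pus1 has more than 1 window) and in 5.07% and 7.81% of all windows. A match is a description of letters near a start, not a measured site.

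The values are signal intensities of Affymetrix probe sets, sets of short DNA probes that each report on 1 transcript region, and a change in them cannot tell fewer cells of a type from less RNA per cell. A floor was put at 143.5, under which 20% of values lie, log2 was taken, and 7134 of 12488 probe sets were bright enough to be tested. On the 4 arrays 18.3% to 21.0% of values lay under the floor. Replicate arrays differed by a median of 0.23 log2 units for EGF and 0.24 for EGF+TCDD. The labels do not say whether replicates were separate experiments, so p-values measure the spread between these arrays, and their number limits the precision. Of 16 fibroblast markers on the array, 14 were above the floor on all 4 arrays, including the collagen genes Col1a1 and Col1a2, while Fap was below it on all 4. Markers of other cell types were partly present: 7 of 21 macrophage, 7 of 12 endothelial, 8 of 22 epithelial, 15 of 26 skeletal muscle and 7 of 12 bone and cartilage markers were above the floor on all 4 arrays. Below it on all 4 were 4 macrophage (Adgre1, Itgam, Lyz2 and Tyrobp), 2 endothelial (Icam2 and Vwf), 6 epithelial (Epcam and Krt14 among them), 2 muscle (Myf5 and Myh1) and 0 bone and cartilage markers. The Gapdh ratio (3′ control probe set over 5′), which rises as RNA degrades, was 1.43 and 2.47 on the EGF arrays and 2.715 and 2.34 on the EGF+TCDD arrays.

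Few transcripts passed the test for a difference between EGF+TCDD and EGF, with 2 arrays a group. The largest rises were of the AhR targets Aldh3a1, Cyp1a1 and Tiparp and of Chil1, which is not on the AhR list. With limma and Benjamini-Hochberg adjustment over the 7134 probe sets, 20 had an adjusted p under 0.05 between EGF+TCDD and EGF (0.28% of those tested), 17 higher (0.238%) and 3 lower (0.0421%). The 17 stand for 14 named genes and a probe set that the array annotation gives no gene symbol, and the 3 for Rflnb, Cdo1 and Bhlhe40. A further 7 probe sets had an adjusted p between 0.05 and 0.10, and 380 had an unadjusted p under 0.05. The arrays of the groups did not overlap for 37% of all probe sets, so an absence of overlap on 2 arrays against 2 is common. Calls were rare at 0.28%, so a gene list with 0 calls below is not a result about that list.

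**Figure D1:**
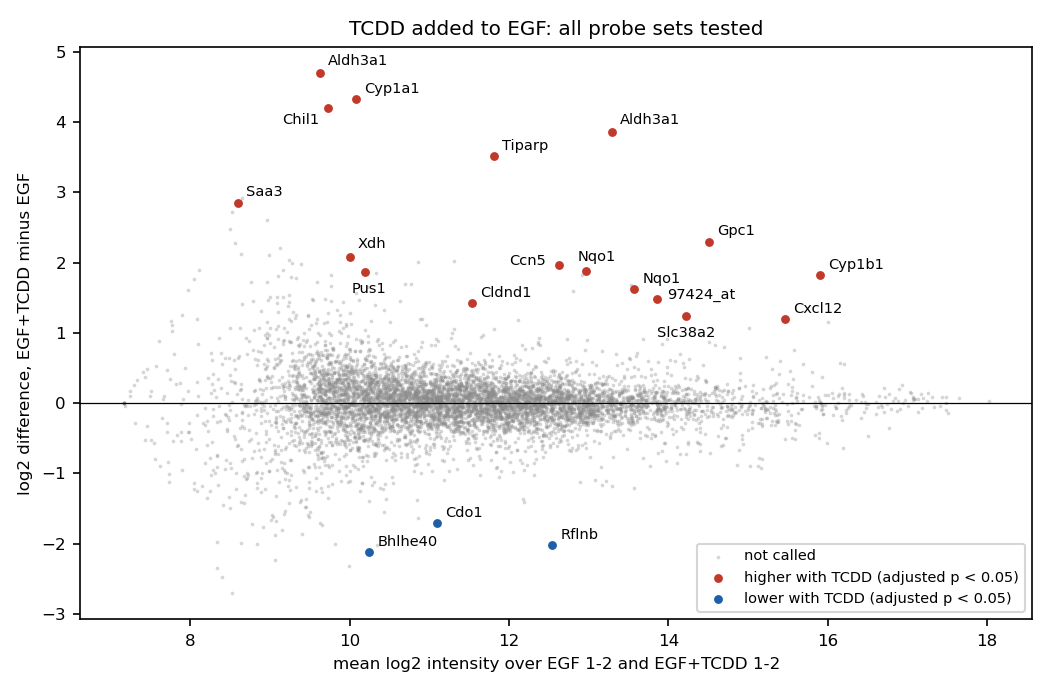
Mean log2 intensity over the 4 arrays (x axis) against the log2 difference, EGF+TCDD minus EGF (y axis), for the 7134 probe sets tested; coloured points have an adjusted p under 0.05. The 20 called probe sets stand at the edges of the cloud, with Aldh3a1, Cyp1a1, Chil1 and Tiparp highest and Bhlhe40 and Rflnb lowest among them.

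Of 21 AhR target genes on the array 13 were bright enough to be tested, and 6 of these rose, beside 0.238% of all probe sets called higher. The median log2 difference of the 13 was 1.62, beside 0.01 over all 5438 genes tested. Members bright only with TCDD passed the brightness filter through the groups where they are high, so the count and the median support nothing by themselves. Among the called probe sets that holds for Cyp1a1, the dimmer Aldh3a1 set and Chil1. With no filter their adjusted p was 0.0648 for Cyp1a1, which ends its call, 0.00166 for Aldh3a1 and 0.0248 for Chil1. Cyp1a1, the cytochrome P450 that oxidises planar aromatic compounds and the classic AhR target, read 285 and 203 on the EGF arrays and 6441 and 3651 on the EGF+TCDD arrays. Both TCDD arrays were high and the groups were far apart, a 20.1-fold rise (log2 4.33, SE 0.66, adjusted p = 0.00494). A dimmer Cyp1a1 probe set, not tested, read 76.3 and 383.1 against 198.7 and 111.1, with overlap. Aldh3a1, an aldehyde dehydrogenase, read 3228 and 2138 with EGF and 33175 and 43925 with EGF+TCDD on its brighter probe set. The groups did not overlap, and the rise was 14.5-fold (log2 3.86, SE 0.36, adjusted p = 7.55e-05). On its dimmer probe set, where 1 EGF array was under the floor, Aldh3a1 went from 168 and 138 to 4421 and 3688 (log2 4.70, SE 0.46, adjusted p = 7.55e-05).

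Tiparp, a mono-ADP-ribosyltransferase that acts back on AhR as a repressor, read 1045 and 1071 on the EGF arrays and 10360 and 14264 on the EGF+TCDD arrays. The EGF arrays nearly coincided, and the rise was 11.5-fold (log2 3.52, SE 0.36, adjusted p = 7.81e-05). Cyp1b1, a P450 that is the main AhR-regulated one of fibroblasts, was already bright with EGF at 26645 and 39679 and reached 115017 and 114631. Its groups were separate and it rose 3.53-fold (log2 1.82, SE 0.20, adjusted p = 0.000172). Cyp1b1 thus showed a smaller fold than Cyp1a1, from a signal that was well above the floor before TCDD.

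Nqo1, a quinone reductase under both AhR and NRF2, has a pair of probe sets that moved alike. The brighter read 6450 and 7438 with EGF and 21456 and 21194 with EGF+TCDD (log2 1.62, SE 0.25, adjusted p = 0.005), and the other 4006 and 4355 against 14704 and 16088 (log2 1.88, SE 0.30, adjusted p = 0.00783). All EGF+TCDD values were above all EGF values for both. Xdh, xanthine dehydrogenase, read 462 and 536 with EGF and 2750 and 1616 with EGF+TCDD. Its groups did not overlap though the TCDD arrays differed, and it rose 4.24-fold (log2 2.08, SE 0.38, adjusted p = 0.0209).

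**Figure D2:**
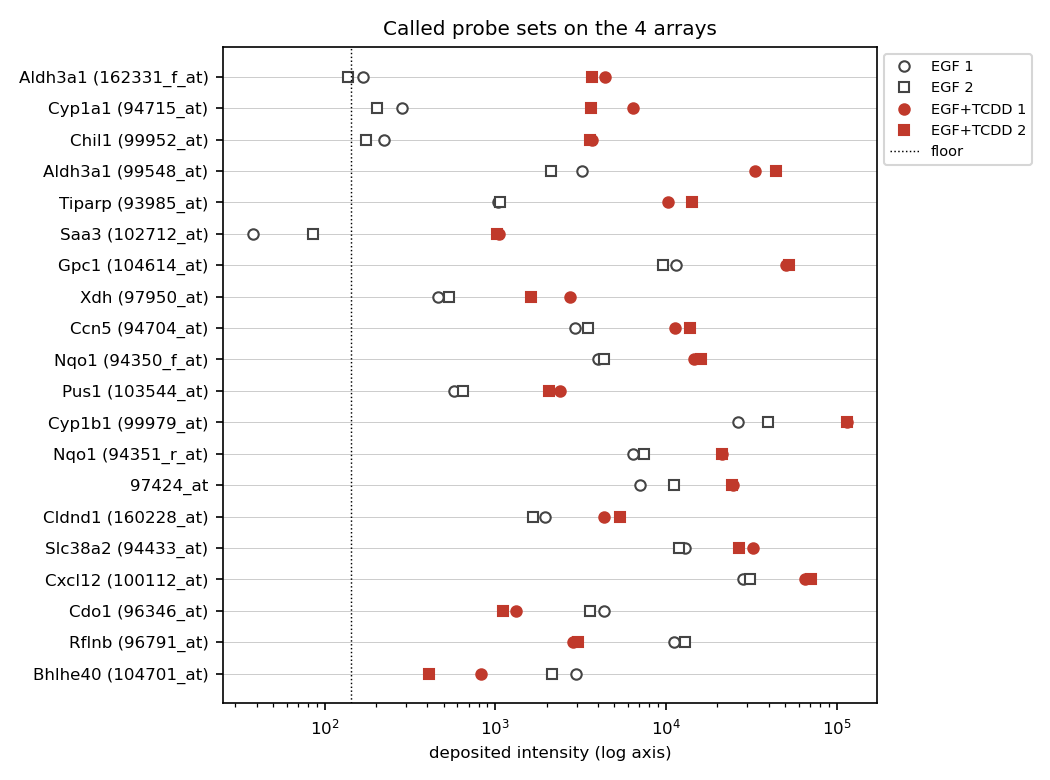
Deposited intensity (log axis) of the 20 called probe sets on each of the 4 arrays; open symbols are EGF, filled ones EGF+TCDD, circles replicate 1 and squares replicate 2, and the dotted line is the floor. Groups are separate in every row, and both EGF values of Saa3 lie under the floor.

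The other 7 AhR targets tested were not called. Ereg, which encodes the EGF receptor ligand epiregulin, read 939 and 894 with EGF and 3026 and 2941 with EGF+TCDD. The groups do not overlap, and the log2 difference was 1.70 (SE 0.47, adjusted p = 0.286). Nfe2l2, which encodes NRF2, read 13507 and 10306 against 23587 and 20818 (log2 0.91, adjusted p = 0.216). Fabp5, Lman1, Gsta2, Gsta4 and Slc7a5 had log2 differences from -0.63 to 0.50. The 8 on the array but too dim to be tested were Ahrr, the repressor of AhR, and Cyp1a2, Il1b, Scin, Igfbp1, Cyp2s1, Gsta1 and Serpinb2, at 815 or less on all 4 arrays. Of these, Ahrr read 41 and 246 with EGF and 65 and 49 with EGF+TCDD, and the brighter Scin probe set 553 and 607 against 520 and 815, both with overlap. Serpinb2 read 272 and 126 against 315 and 390, without overlap. Igfbp1 read 70 and 86 against 330 and 261 on a probe set without overlap, and 216 and 62 against 63 and 304 on another, with overlap. Gsta1 was lower, at 64 and 64 against 22 and 21, all under the floor. Of 31 NRF2 and glutathione genes 0 were called (median 0.16), beside 0.28% of all probe sets. Fth1 and Gstm1, among the brightest of the 31, gave 0.13 and 0.18, while Sod2, mitochondrial superoxide dismutase, gave 1.06 (adjusted p = 0.392).

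Genes of the receptor machinery were not called, beside 0.28% of all probe sets called. Of 16 members of the AhR complex and its cofactors 0 passed, with a median of -0.14 and 13 within 0.5 log2 units of 0. Ahr itself read 5850 and 7427 with EGF and 4789 and 4266 with EGF+TCDD (log2 -0.54, SE 0.33, adjusted p = 0.999), with EGF+TCDD lower on both arrays. Arnt, its partner, read 871 and 812 against 676 and 642 (log2 -0.35, adjusted p = 0.999). The chaperone gene Hsp90aa1 and the related factor Hif1a were bright on all 4 arrays, at 43998 to 64006 and 20514 to 25295, with overlapping groups.

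Outside the AhR list, called genes that rose encode secreted or cell-surface proteins, transporters and enzymes. Gpc1, glypican-1, a heparan sulfate proteoglycan of the cell surface, read 11534 and 9572 on the EGF arrays and 50787 and 52737 on the EGF+TCDD arrays. Replicates were close and the groups far apart, a 4.92-fold rise (log2 2.30, SE 0.24, adjusted p = 8.13e-05). Chil1, a secreted chitinase-like glycoprotein, read 222 and 175 with EGF, just over the floor, and 3704 and 3591 with EGF+TCDD. It rose 18.5-fold (log2 4.21, SE 0.63, adjusted p = 0.00442), with no overlap. The acute-phase gene Saa3 was under the floor on both EGF arrays, at 38 and 86, and read 1058 and 1022 with EGF+TCDD. Against the floor that is at least 7.24-fold higher (log2 2.86, SE 0.44, adjusted p = 0.005).

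Ccn5, a matricellular protein of the CCN family, read 2946 and 3514 with EGF and 11346 and 13834 with EGF+TCDD. Its groups were apart and it rose 3.89-fold (log2 1.96, SE 0.28, adjusted p = 0.00364). The chemokine gene Cxcl12 rose on its called probe set from 28474 and 31086 to 65547 and 70918 (log2 1.20, SE 0.23, adjusted p = 0.0313). Of its other probe sets, one gave 1.68 (adjusted p = 0.0816) and one 0.75 (adjusted p = 0.668), so Cxcl12 was higher on each but past the threshold on 1 of 3.

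The remaining rises were between 2.37-fold and 3.63-fold. Pus1, a pseudouridine synthase, went from 576 and 649 to 2385 and 2071 (log2 1.86, SE 0.37, adjusted p = 0.0397). Cldnd1, a claudin-domain membrane protein, went from 1961 and 1668 to 4349 and 5380 (log2 1.42, SE 0.24, adjusted p = 0.00973). Slc38a2, a sodium-coupled neutral amino acid transporter, went from 12910 and 11973 to 32362 and 26851 (log2 1.245, SE 0.23, adjusted p = 0.0209). None of the 3 overlapped between groups. The probe set with no gene symbol went from 7026 and 11144 to 24878 and 24540 (log2 1.48, SE 0.25, adjusted p = 0.00973).

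The genes that fell were Bhlhe40, Rflnb and Cdo1. Rflnb, refilin B, a filamin-binding regulator of the actin cytoskeleton, read 11219 and 12952 on the EGF arrays and 2854 and 3065 on the EGF+TCDD arrays. It fell 4.08-fold (log2 -2.03, SE 0.27, adjusted p = 0.00162), and the EGF+TCDD values lay within the range of the UT arrays (2022 to 3242). Bhlhe40, a transcriptional repressor of the circadian clock and of hypoxia responses, read 2978 and 2147 with EGF and 825 and 409 with EGF+TCDD. The fall was 4.35-fold (log2 -2.12, SE 0.38, adjusted p = 0.0183), with no overlap. Cdo1, cysteine dioxygenase, which starts cysteine breakdown to taurine, read 4331 and 3599 against 1317 and 1107 (log2 -1.71, SE 0.29, adjusted p = 0.0104).

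With any 1 of the 4 arrays left out, so that its group rests on a lone array assumed to vary like the other groups, 6 of the 20 probe sets were still called each time: both of Aldh3a1, and those of Tiparp, Gpc1, Cyp1b1 and Rflnb, with adjusted p at most 0.0428. The number of calls was 11 without EGF 1, 12 without EGF 2, 8 without EGF+TCDD 1 and 12 without EGF+TCDD 2. Cyp1a1 was lost without EGF 2 (adjusted p = 0.0704) or EGF+TCDD 1 (0.118), and Ccn5 without EGF 1 (0.0621) or EGF+TCDD 2 (0.0598). Chil1 was lost without EGF 2 (0.0638), EGF+TCDD 1 (0.0736) or EGF+TCDD 2 (0.0598), and the brighter Nqo1 probe set without EGF 1 (0.101), EGF+TCDD 1 (0.0736) or EGF+TCDD 2 (0.0598). Xdh held only without EGF+TCDD 2 (0.0399; 0.258 without EGF 1, 0.14 without EGF 2, 0.427 without EGF+TCDD 1), and Bhlhe40 only without EGF+TCDD 1 (0.0212; 0.292 without EGF 1, 0.0704 without EGF 2, 0.283 without EGF+TCDD 2). The probe set with no symbol held only without EGF 2 (0.0112; 0.255 without EGF 1, 0.123 without EGF+TCDD 1, 0.0979 without EGF+TCDD 2). Saa3 (0.0598 to 0.0736), the dimmer Nqo1 probe set (0.0679 to 0.104), Cdo1 (0.0646 to 0.196), Cldnd1 (0.0621 to 0.18), Slc38a2 (0.0882 to 0.395), Cxcl12 (0.183 to 0.306) and Pus1 (0.195 to 0.427) were lost whichever array was left out. No log2 difference changed sign in any of these fits. With the Gapdh ratio as a covariate 10 probe sets were called: both of Aldh3a1, Cyp1a1, Tiparp, Cyp1b1, Chil1, Saa3, Gpc1, Ccn5 and Rflnb.

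Outside the AhR set, calls in the gene lists were of 5 genes, 3 of them in 1 list. Of 28 chemokine, cytokine and acute-phase genes 3 rose (Chil1, Saa3 and Cxcl12) and 0 fell, beside 0.238% of all probe sets called higher. The median was 0.47, 20 of 28 were above 0 and 39.3% lay within 0.5 log2 units of 0, beside 0.01, 2754 of 5438 and 86.7% for all genes tested. Chil1 passed the filter only through groups with TCDD, so the counts and the median of this list support nothing by themselves. Lcn2, the iron-siderophore binder lipocalin 2, read 4582 and 3680 with EGF and 12191 and 17391 with EGF+TCDD. Those groups are separate, but the log2 difference of 1.83 (SE 0.39) gave an adjusted p = 0.0798. Cx3cl1, the membrane-bound chemokine fractalkine, read 15913 and 11989 against 5716 and 6582 (log2 -1.17, adjusted p = 0.274), lower on both arrays.

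Interferon response genes had no call among 29. Of these, 25 were above 0 and the median was 0.34, beside 2754 of 5438 and 0.01 for all genes tested. Members that passed the filter only through groups with TCDD are in this count and median, which support nothing by themselves. The examples were picked for their size after the values were seen. Psmb8, an immunoproteasome subunit, read 357 and 250 with EGF and 1454 and 1028 with EGF+TCDD (log2 2.03, SE 0.45, adjusted p = 0.0891). Psmb9, another subunit of that complex, read 154 and 233 against 702 and 978 (log2 2.13, SE 0.71, adjusted p = 0.555). Psmb8 and Psmb9 both passed the filter only through groups with TCDD, so their rises support nothing by themselves. Gbp2, a guanylate-binding protein, read 163 and 91 against 1164 and 631 (log2 2.48, SE 0.84, adjusted p = 0.577). These 3 were dim with EGF, at 91 to 357, and higher with EGF+TCDD on both arrays, while the brightest members, B2m and Ifitm3, gave 0.07 and 0.23. The list's mean log2 level was 11.11 and 10.93 on the EGF arrays and 11.63 and 11.51 on the EGF+TCDD arrays, beside 11.23 to 11.41 on the UT arrays.

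Glycolysis and hypoxia genes leaned the other way, with 0 of 25 called, 23 below 0 and 20% within 0.5 log2 units of 0. Their median of -0.69 was the lowest of the lists that are not cell type markers. For TCDD against UT their median was -0.66, and for IDMB + EGF + TCDD against IDMB + EGF it was -0.395. Ldha, lactate dehydrogenase A and one of the brightest, read 85050 and 101856 with EGF and 60409 and 59587 with EGF+TCDD (log2 -0.63, adjusted p = 0.999). Aldoa, aldolase A, read 59623 and 42367 against 29524 and 23902 (log2 -0.92, SE 0.28, adjusted p = 0.409). Bnip3, a hypoxia-induced mitophagy receptor, read 3374 and 2622 against 1342 and 971 (log2 -1.38, SE 0.41, adjusted p = 0.409), and Pdk1, which restrains pyruvate entry to mitochondria, 8681 and 6658 against 3596 and 2277 (log2 -1.41, SE 0.49, adjusted p = 0.608). All 4 were lower on both EGF+TCDD arrays, though Hk1, hexokinase 1 and the other of the 2 brightest, overlapped (log2 0.04). The list's mean log2 level was 13.16 and 12.96 with EGF and 12.41 and 12.33 with EGF+TCDD, while UT arrays ranged from 12.78 to 13.40. The Gapdh ratio was also higher on average with EGF+TCDD, and its part in this was not tested for the list.

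**Figure D3:**
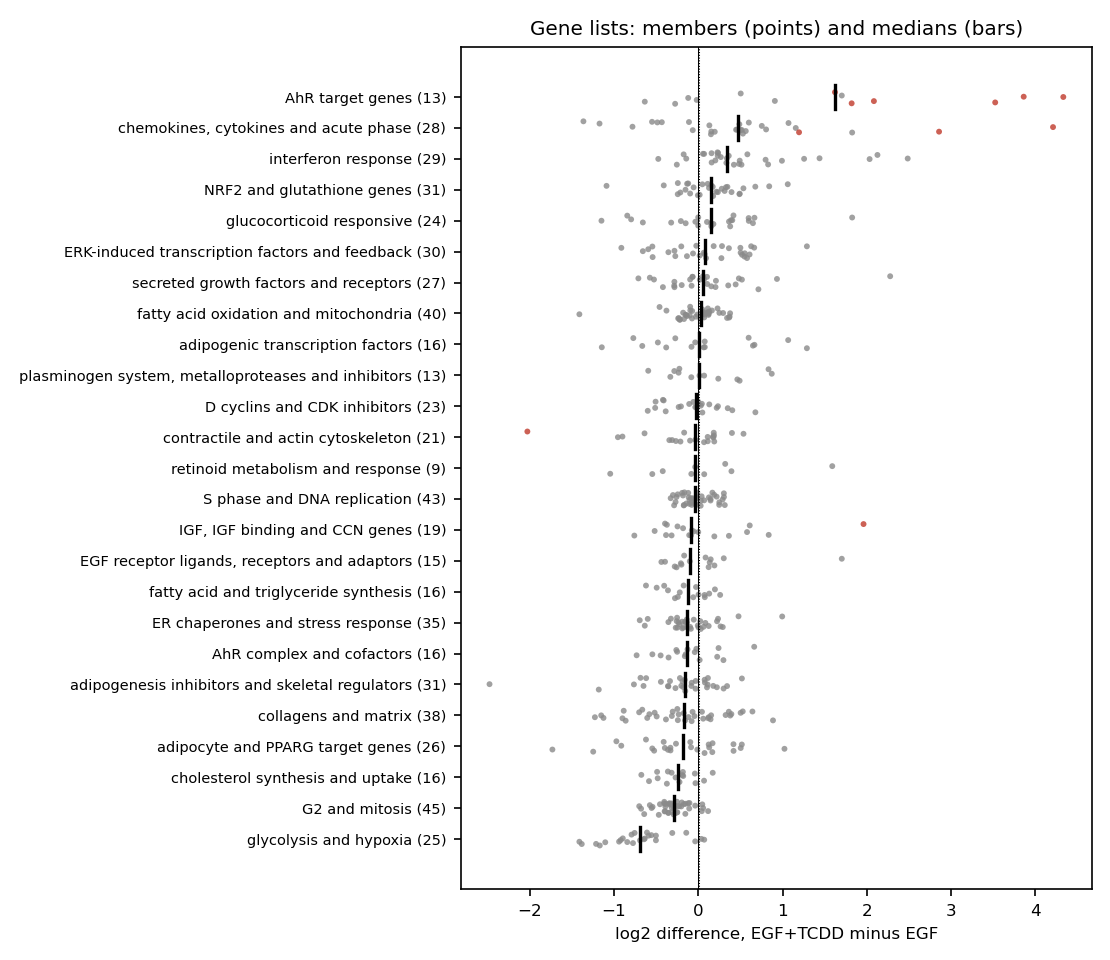
Log2 difference, EGF+TCDD minus EGF, of each measured member (points, red where called) and the median (black bar) of 25 gene lists, with the number of members tested in brackets; the dotted line is the median of all genes tested. AhR targets have the highest median at 1.62 and glycolysis and hypoxia genes the lowest at -0.69.

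Genes of cell division had no call, beside 0.28% of all probe sets called, and those of mitosis leaned lower with EGF+TCDD. All 43 S phase and DNA replication genes were within 0.5 log2 units of 0 (0 called, median -0.04), and Pcna, the replication clamp, read 20971 and 25180 with EGF and 24566 and 29076 with EGF+TCDD. Of 45 G2 and mitosis genes 0 were called, 41 were below 0 and the median was -0.29, beside 2682 of 5438 and 0.01 for all genes tested. Cdk1, the mitotic kinase, read 37559 and 43198 against 32399 and 33637, far above the UT arrays (6496 to 12962). The mean log2 level of the mitotic list was 13.17 and 13.19 with EGF, 12.93 and 12.85 with EGF+TCDD and 10.83 to 11.73 on the UT arrays.

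Targets of EGF signalling showed no call either, beside 0.28% of all probe sets called. Among 30 ERK-induced transcription factors and feedback genes 0 passed (median 0.09), and Dusp6, the ERK phosphatase, read 4790 and 4646 with EGF and 4509 and 3738 with EGF+TCDD, against 314 to 611 on the UT arrays. Fos, the immediate-early factor, read 556 and 532 against 2121 and 833 (log2 1.29, SE 0.64, adjusted p = 0.996). Of 15 ligands, receptors and adaptors of the EGF pathway 0 were called, and Egfr read 1191 and 1223 against 1461 and 1124, with overlap.

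Lists tied to the fat cell programme had no call, beside 0.28% of all probe sets called. They were 16 adipogenic transcription factors (median 0.02), 26 adipocyte and PPARG target genes (median -0.18) and 31 adipogenesis inhibitors and skeletal regulators (median -0.16). Cebpb and Cebpd, early factors of adipogenesis, read 12845 and 9734 against 19987 and 14327, and 28064 and 21302 against 41850 and 35131, with log2 differences of 0.60 and 0.65 (adjusted p = 0.572 and 0.437). Lpl, lipoprotein lipase, was near the floor on all 4 arrays, at 88 to 344.

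Among 38 collagen and matrix genes 0 were called (median -0.16), and 60.5% lay within 0.5 log2 units of 0, a smaller share than the 86.7% of all genes. The lowest were Col15a1, a basement membrane collagen, at -1.23 (SE 0.48, adjusted p = 0.719), Tnc, tenascin C, at -1.15 (adjusted p = 0.973) and Eln, elastin, at -1.12 (adjusted p = 0.781), and Nid1, nidogen, was highest at 0.89 (adjusted p = 0.999). The brightest members had overlapping groups, with Col1a1 at 136231 and 137630 with EGF and 150819 and 134951 with EGF+TCDD, and Bgn, biglycan, at 141890 to 156303. Rflnb was the 1 call among 21 contractile and actin genes (median -0.03, 76.2% within 0.5), and Ccn5 the 1 among 19 IGF, IGF-binding and CCN genes (median -0.09). Retinoid metabolism had 0 calls among 9, although Adh7, an alcohol dehydrogenase that oxidises retinol, read 3634 and 4686 against 12392 and 12459 (log2 1.59, SE 0.34, adjusted p = 0.0731).

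No member was called in the 8 other lists. Their medians were 0.15 for 24 glucocorticoid responsive genes, 0.06 for 27 secreted growth factors and receptors, 0.04 for 40 genes of fatty acid oxidation and mitochondria and 0.02 for 13 of the plasminogen and metalloprotease systems. They were -0.02 for 23 D cyclins and CDK inhibitors, -0.12 for 16 of fatty acid and triglyceride synthesis, -0.13 for 35 ER chaperones and -0.25 for 16 of cholesterol synthesis and uptake. The marker lists of other cell types had 0 calls as well, with 2 to 9 members tested. Summed epithelial marker intensity was 11046 and 13361 with EGF and 8628 and 8689 with EGF+TCDD, and that of bone and cartilage markers 4502 and 5601 against 3313 and 3495. Their part in the results above was not tested.

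The same TCDD difference was then read in the other backgrounds, which share no arrays with this one. TCDD against UT had 548 calls (7.68%), of which 277 were higher (3.88%) and 271 lower (3.8%). IDMB + EGF + TCDD against IDMB + EGF had 26 (0.364%), 16 higher (0.224%) and 10 lower (0.14%). IDMB + TCDD against IDMB had 470 (6.59%), 218 higher (3.06%) and 252 lower (3.53%). Of the 20 probe sets called with EGF, 16 had the same sign without EGF and 12 of those were called there, while Saa3 was called in the opposite direction. In the mix with EGF 19 had the same sign and 7 were called, and in the mix without EGF 17 and 12. Called in all 4 backgrounds were Gpc1, Cyp1b1 and both probe sets of Aldh3a1.

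Gpc1 differed by 2.30 log2 units with EGF, 1.52 without, 2.38 in the mix with EGF and 1.82 in the mix alone. The brighter Aldh3a1 probe set differed by 3.86, 3.39, 4.58 and 4.37 in the same order. Tiparp differed by 3.52 with EGF and 3.88 without, but by 1.31 and 1.15 in the mix, where the arrays without TCDD already read 2764 to 6747. Cyp1a1 differed by 4.33 with EGF and 2.21 without, and that gap of 2.13 (SE 0.89) did not pass the interaction test (adjusted p = 0.255), with a 95% interval from 0.24 to 4.01. Rflnb fell with EGF, but its difference was 0.50 without EGF and -0.09 and -0.15 in the mix, where it was dim at 754 to 1455 on all 9 arrays.

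**Figure D4:**
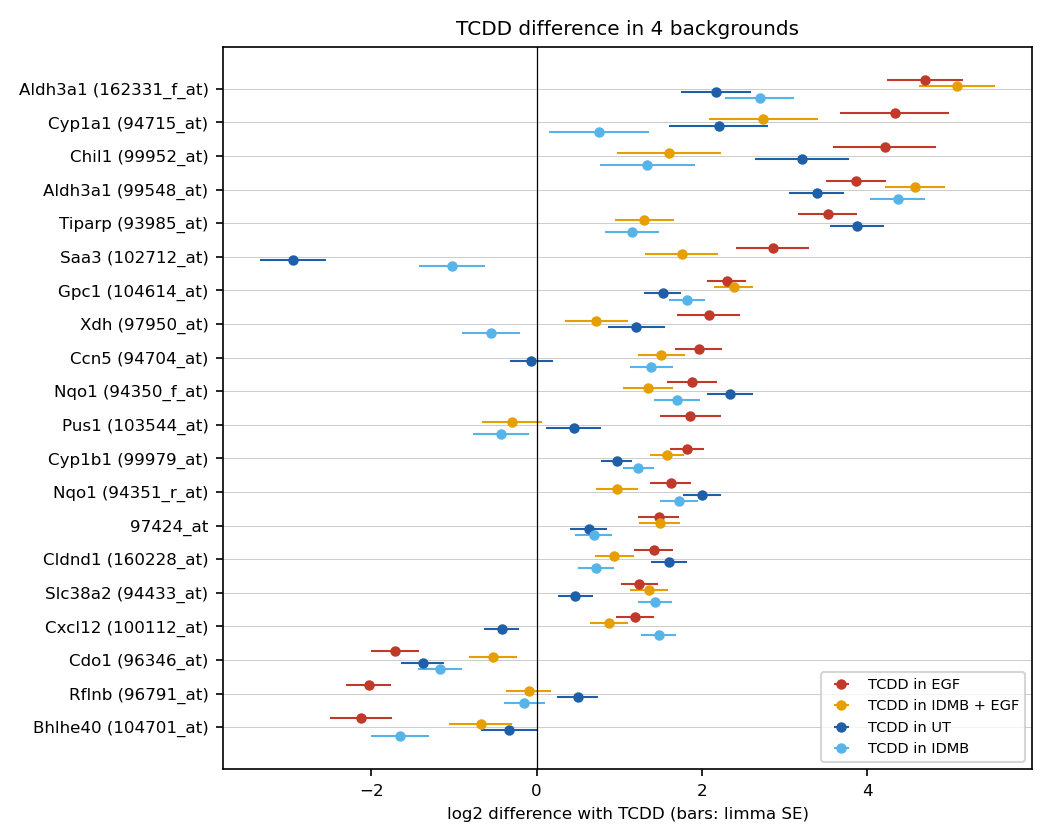
Log2 difference with TCDD (points, bars are limma standard errors) of the 20 probe sets called with EGF, in cells given EGF, IDMB + EGF, neither (UT) or IDMB alone. Aldh3a1, Gpc1 and Cyp1b1 are to the right of 0 in all 4 backgrounds, and Saa3 is on opposite sides with and without EGF.

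Most probe sets called in TCDD against UT were not called in cells with EGF. Of the 548 probe sets called in TCDD against UT, 13 were called with EGF (2.37%), 12 in the same direction, and 241 had the same sign. Their median absolute log2 difference was 1.03 without EGF, where it chose them, and 0.19 with EGF. Over all 7134 probe sets the differences with and without EGF had a Pearson correlation of -0.02, those with EGF in and out of the mix 0.30, and those without EGF in and out of the mix 0.43, as a description over probe sets that share arrays. RNA quality values differed between these groups. The Gapdh ratio was 0.92 on TCDD 1, 0.85 on TCDD 2 and between 1.254 and 1.515 for UT, and with it as a covariate TCDD against UT had 36 calls in place of 548. Leaving out TCDD 2 gave 114 calls, TCDD 1 gave 136 and UT 2 gave 178, and scaling each array to the same median turned 277 higher and 271 lower into 175 and 308.

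The direct test, the difference between the TCDD differences with and without EGF, called 26 probe sets (0.364%), 19 higher with EGF than without (0.266%) and 7 lower (0.0981%). For 24 of them the signs were opposite, for 20 the difference without EGF was the larger, and 15 were within 0.5 log2 units of 0 with EGF. A TCDD difference was called with EGF for 4 of the 26 and without EGF for 21. Saa3 had the largest: it fell from 4191, 11059 and 5354 on the UT arrays to 563 and 1183 on the 2 TCDD arrays, whereas with EGF it rose from under the floor to 1058 and 1022. Against the floor that is a gap of at least 5.80 log2 units (SE 0.60, adjusted p = 0.000284), and it was called with any 1 of the 9 arrays left out (adjusted p at most 0.00433).

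For Rflnb the interaction was -2.53 (SE 0.37, adjusted p = 0.0126). It read 2022, 2192 and 3242 on the UT arrays and 3150 and 3756 with TCDD, so the EGF arrays, at 11219 and 12952, stood apart from all the others. This call was lost without EGF 2, EGF+TCDD 1 or TCDD 2, with adjusted p up to 0.0948. Ccn5 read 6855 to 9047 on the UT arrays and 6469 and 9454 with TCDD, and the EGF arrays, at 2946 and 3514, were the low ones (interaction 2.02, SE 0.39, adjusted p = 0.0356). Cxcl12 showed the same order, with UT at 62861 to 75688 and TCDD at 58014 and 44148 on the called probe set (interaction 1.62, SE 0.31, adjusted p = 0.0356) and 2.73 (SE 0.49, adjusted p = 0.0306) on a dimmer one. Lcn2 read 14371 to 42813 on the UT arrays and 11765 and 13134 with TCDD (interaction 2.65, SE 0.53, adjusted p = 0.0439).

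Cd70, a TNF family ligand, read 293 and 302 with EGF, 1526 and 807 with EGF+TCDD, 693 to 1869 on the UT arrays and 315 and 444 with TCDD (interaction 3.59, SE 0.62, adjusted p = 0.0257). Lxn, the carboxypeptidase inhibitor latexin, read 15820 and 15637 with EGF and 23157 and 25530 with EGF+TCDD (log2 0.63, adjusted p = 0.782). It read 24246 to 42364 on the UT arrays and 15322 and 11259 with TCDD (log2 -1.42, adjusted p = 0.00434). Its interaction was 2.04 (SE 0.36, adjusted p = 0.0279), with the larger difference without EGF. Cx3cl1 ran against these, at 3378 to 5770 on the UT arrays and 11968 and 8756 with TCDD (interaction -2.35, SE 0.44, adjusted p = 0.032). Plxnb2, a semaphorin receptor, was raised by TCDD alone, from 891 to 1601 on UT up to 6263 and 9621, and read 1620 and 1489 with EGF and 1867 and 1271 with EGF+TCDD (interaction -2.64, SE 0.44, adjusted p = 0.0215). Pdia6, Pex6 and the nucleoside transporter gene Slc29a1 had interactions of -1.81, -1.29 and -1.27 (adjusted p = 0.0373, 0.0409 and 0.0306). Probe sets of 1 gene disagreed in size: a dimmer Lcn2 set gave 0.15, a dimmer Cx3cl1 set -0.17 and a brighter Plxnb2 set -0.52. Those of Pdia6 gave -1.21 and -0.66, and another Cxcl12 set 1.28, all uncalled.

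**Figure D5:**
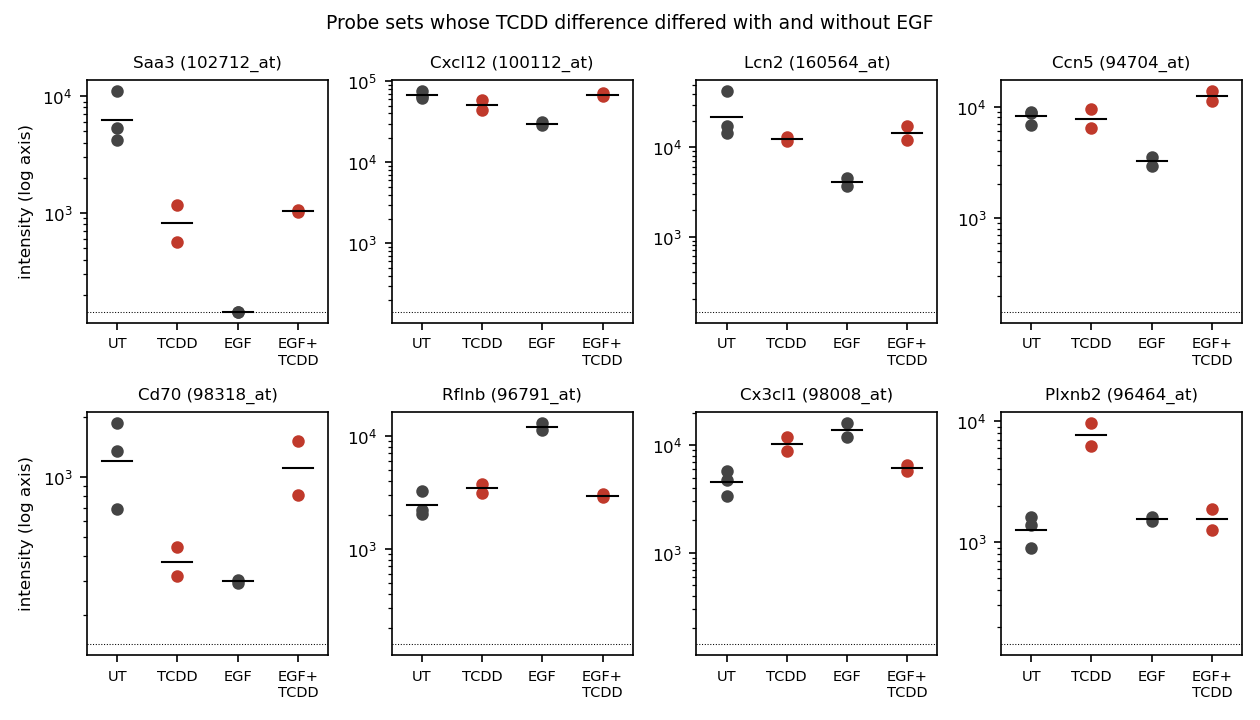
Intensity (log axis, values under the floor drawn at it) of 8 probe sets with a called interaction, on each UT, TCDD, EGF and EGF+TCDD array; points are arrays, red with TCDD, bars are means of log2 values and the dotted line is the floor. Saa3 is lower with TCDD alone and higher with TCDD in EGF, and Rflnb is high on the EGF arrays only.

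The number of interaction calls depended on single arrays, being 1 without EGF+TCDD 1, 2 without TCDD 2, 3 without EGF 2, 5 without EGF 1, 6 without UT 2, 9 without EGF+TCDD 2, 14 without TCDD 1, 42 without UT 1 and 113 without UT 3. With the Gapdh ratio as a covariate, which widened the median standard error 1.45 times, Saa3 was the 1 call. In the mix, on other arrays, the interaction had 70 calls (0.981%), 42 higher (0.589%) and 28 lower (0.392%). Saa3 there also had a called interaction of 2.78 (adjusted p = 0.0433), and Rflnb had 0.06 (adjusted p = 0.969).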

How the data were processed

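Values were the intensities that the authors deposited, on a linear scale, in 1 table of 12488 probe sets by 18 arrays. Their mean without the outer 2% on either side was 2501 to 2502 on every array, so they had been scaled before deposit. Which software made them is not stated in the labels. Array medians differed by at most 1.18 times, and values were used as deposited.

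Values were floored at 143.5 (20th percentile) and log2 was taken. The 66 control probe sets were left out, and probe sets were tested where any of the 8 group means reached 9.73, the 50th percentile of floored log2 values. Gene symbols came from the array annotation, with 10833 probe sets having 1 symbol, 396 several and 1193 none. A group-means fit over all 18 arrays used limma 3.58.1 in R 4.3.3 with a variance trend (residual degrees of freedom 10, prior 6.03). The fit, but not the floor or the filter, was also run on simulated data. Adjusted p is Benjamini-Hochberg over the 7134 probe sets within each comparison, and those under 0.05 are called.

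Named genes were the markers, all measured AhR genes, up to 15 called in each direction, called list members, up to 6 interactions in each direction, and the 2 brightest of lists without calls. Psmb8, Psmb9, Gbp2, Aldoa, Bnip3, Pdk1, Cdk1, Dusp6, Fos, Egfr, Sod2, Lpl and Adh7 were chosen after their values were seen. So were Col15a1, Tnc, Eln and Nid1, picked as the extremes of their list. A gene of a list is read by its brightest probe set. Lists held 1036 genes, of which 618 were tested. The comparison and the lists were chosen with earlier results of these data known. Alternatives changed the scaling, floor, filter, variance trend, RNA quality covariate, block and arrays fitted.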

Additional observations from a re-analysis of the deposited data

Results flagged for a closer look

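Results are listed here because the TCDD difference itself differed with and without EGF in the interaction test, which called 26 probe sets. The log2 gaps, with EGF minus without, were at least 5.80 for Saa3, whose EGF arrays were both under the floor. They were 3.59 for Cd70, 2.73 and 1.62 for the called Cxcl12 probe sets (another gave 1.28, uncalled), 2.65 for Lcn2, 2.04 for Lxn and 2.02 for Ccn5. They were -2.64 for Plxnb2, -2.53 for Rflnb, -2.35 for Cx3cl1, -1.81 for Pdia6, -1.29 for Pex6 and -1.27 for Slc29a1. Saa3 alone among these was called under every alternative run, and 21 of the 26 probe sets had the same sign in the mix, where 3 were called.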

How the results depend on the processing

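With 2 arrays a group, most calls rest on a thin margin. Of the 20 probe sets called between EGF+TCDD and EGF, 7 were called under every alternative that kept all 4 arrays, and 6 also with any array left out (8 to 12 calls). No log2 difference or interaction of a named gene changed sign while called. The count was 12 with no filter on dim probe sets, where 12422 are tested, and 10 with the Gapdh ratio as a covariate. Saa3 had both EGF arrays under the floor, so its log2 difference ran from 1.90 with the floor at the 30th percentile, where it was not called, to 3.79 at the 10th.

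The 26 interaction calls became 13 with arrays scaled to the same median, 41 with the floor at the 30th percentile, 1 with the Gapdh ratio and 6 with the actin ratio as a covariate, 15 with no variance trend and 3 in the 9 arrays without IDMB. They were 1 to 113 with 1 array left out, and 70 for the matching interaction in the mix (0.981%), an alternative chosen after seeing the data, of which 3 were shared. The cause of these moves was not tested.

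IDMB + EGF + TCDD against IDMB + EGF had 5 calls with the Gapdh ratio, 3 with the actin ratio and 6 to 23 with 1 array left out. TCDD against UT had 338 with no filter, 36 with the Gapdh ratio and 114 to 640 with 1 array left out.

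Same-numbered EGF and EGF+TCDD arrays did not clearly deviate together (correlation of replicate differences 0.08). The correlation was 0.14 for UT with TCDD, 0.01 for UT with EGF and -0.01 for TCDD with EGF+TCDD, over 2 numbers each. Among all pairs of groups it was highest for UT with IDMB (0.279), TCDD with IDMB + TCDD (0.246) and IDMB + TCDD with IDMB + EGF + TCDD (0.199). It was lowest for EGF+TCDD with IDMB + EGF (-0.103). The labels name no shared batch, so the numbers were not taken as pairs, but these values do not settle whether some groups share experiments. With a replicate block there were 24 calls in place of 20 for EGF+TCDD against EGF and 178 in place of 26 for the interaction, 816 in place of 548 for TCDD against UT and 38 in place of 26 for IDMB + EGF + TCDD against IDMB + EGF.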
